A study of Rattus norvegicus with 8 samples.

Results

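Genes that carry fatty acids into the heart muscle cell and burn them in its mitochondria were compared in whole hearts of aged female rats with ovaries, without them, and with estradiol given back early or late. The set was a list of 33 gene symbols that runs from lipoprotein lipase and the uptake proteins through the carnitine shuttle and the enzymes of beta-oxidation to the regulators of fuel choice. Each gene was represented by its brightest probe set (the group of short probes that reads 1 transcript on the array) among those annotated to that gene alone. Such a probe set was present for 32 of the 33 genes, and 30 of these passed a filter on dim signal, out of 14217 genes with a probe set of their own and 10450 that passed the filter in the whole dataset. Acaa1a, a peroxisomal thiolase, was covered only by a probe set shared with its near copy Acaa1b and was not analysed here. Acot1, a cytosolic thioesterase, and Angptl4, a secreted inhibitor of lipoprotein lipase, were measured but too dim to be tested. All counts of members below are therefore over the 30 genes that passed.

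The animals were female Norway Brown rats of 18 to 22 months. The sham group had surgery without removal of tissue and kept its ovaries. The Ovx group lost its ovaries and received no hormone. The early estradiol group lost its ovaries and received, in the same operation, a 0.5 mg pellet of 17-β estradiol under the skin that releases over 90 days, and the late estradiol group received the same pellet 9 weeks after ovariectomy. Both estradiol groups therefore lacked their ovaries while the pellet was in place, and no group with ovaries received estradiol. Each group had 2 arrays, and every array was loaded with an equal mix of total RNA from 3 hearts, so that differences between single animals were averaged before the measurement. The sources used here do not say whether any heart entered both pools of a group, and the p-values measure only the spread between pools, which may be technical. Whole hearts hold many cell types, and fewer cells of a type and less RNA per cell cannot be told apart in these samples.

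Fatty acids are the main fuel of the adult heart. They are freed from lipoproteins at the vessel wall, cross the muscle cell membrane with the help of transport proteins, are bound to coenzyme A, and enter the mitochondrion as carnitine esters. Inside, a repeating cycle of dehydrogenation, hydration, a further dehydrogenation and thiolysis shortens the chain and passes electrons to the respiratory chain, while pyruvate dehydrogenase kinases and malonyl-CoA set how much glucose or fat is used.

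No fatty acid gene passed the test in any comparison. With limma, a linear model that pools the spread of all 4 groups, the smallest p adjusted over all 18625 probe sets tested was 0.943 among the members, and 0 of the 18625 passed at 0.05 in any of the 6 pairwise comparisons or over the 4 groups at once. Over the 4 groups, 0 members had an unadjusted p under 0.05 in limma's moderated F test, against 1.86% of all probe sets. What the arrays showed for these genes was a set of small shifts. The mean was highest in sham hearts for 17 of the 30 members and lowest in sham for 0, where over all probe sets 23.2% were highest and 19.5% lowest in sham. In the late estradiol group it was lowest for 17 members, against 31.2% of all probe sets, and highest for 3, against 30.1%. Cpt2, Hadh and Acadm, 3 enzymes of the mitochondrial pathway, had the smallest p for late estradiol against sham, with log2 differences of -0.57, -0.55 and -0.37, and most of the size of each came from the replicate 1 arrays. A fit with the replicate number as a block called 1 probe set, for late estradiol against Ovx, and it was no member.

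**Figure D1:**
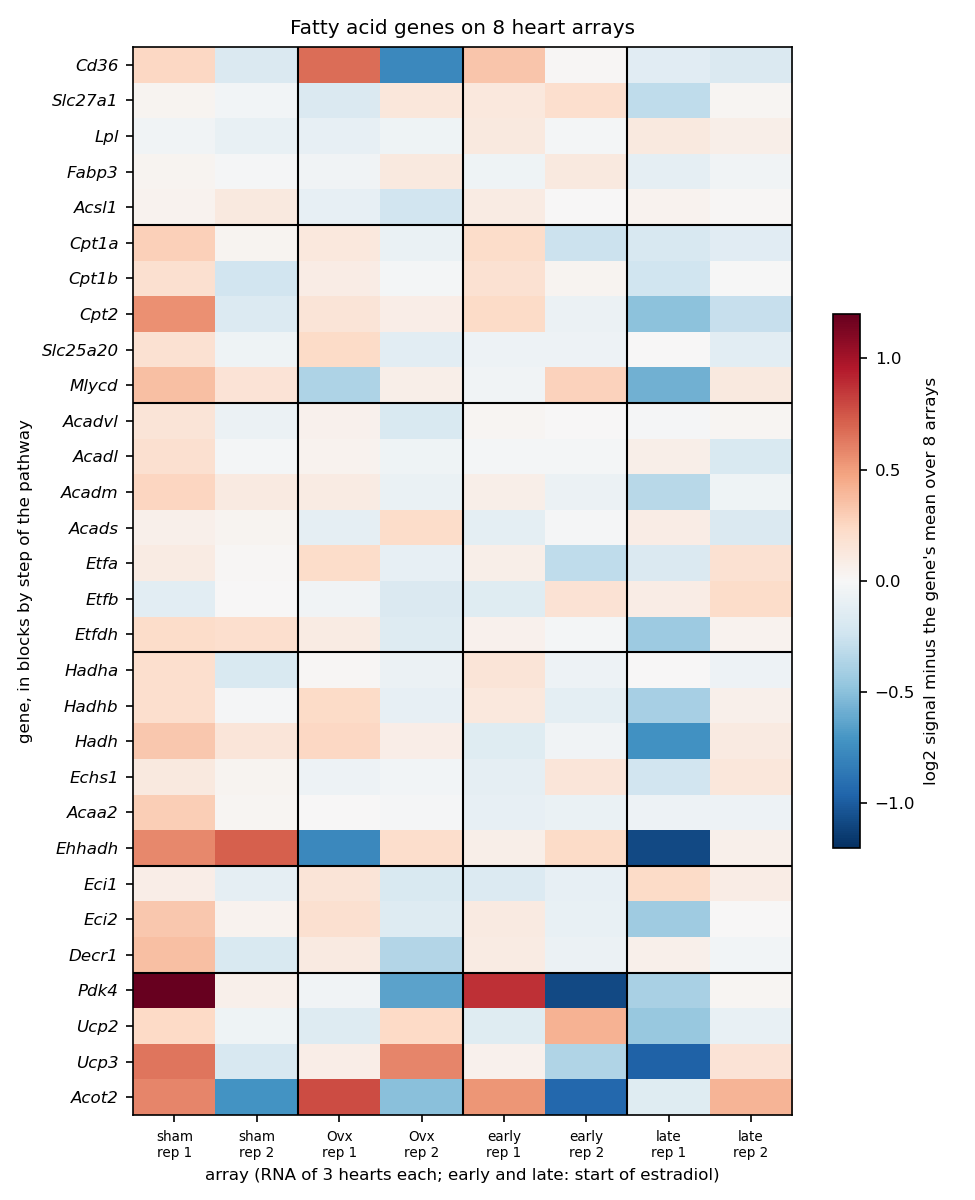
Log2 signal of the 30 tested fatty acid genes (rows, in blocks by step of the pathway) on the 8 arrays (columns, RNA of 3 hearts each), each shown as its distance from that gene's mean over the 8 arrays. Red is above and blue below the gene's mean. Sham replicate 1 was the highest of the 8 arrays for 15 genes (11.1% of all probe sets) and late estradiol replicate 1 the lowest for 14 (23.3% of all probe sets).

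The values are log2 signals after quantile normalization, which gives every array the same distribution. The differences below are log2 differences between group means of 2 arrays each, and the error after ± is limma's moderated standard error. A probe set's brightness depends on its probes, so levels are not compared between genes. The members were steadier than most of the array. Their median residual SD was 0.187, against 0.395 over all probe sets tested, and it ran from 0.056 to 0.853. The group means of a member spanned a median of 0.28, against 0.54 over all probe sets, and spanned less than 0.5 for 25 of the 30. Members and all probe sets were not matched for brightness in either comparison. The part of brightness in the smaller spread was not tested. The 95% interval of a member's difference reached a median of 0.425 to either side of the estimate.

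The arrays themselves differed. Before normalization the replicate 2 arrays were the brighter ones, with a 2% trimmed mean signal of 104.2 to 137.5 against 28.2 to 70.0 for the replicate 1 arrays. The dimmest, late estradiol replicate 1, had a ratio of 3' to 5' Gapdh signal, a sign of RNA quality, of 2.70, against 1.26 to 1.65 on the others. The corresponding ratio for actin was 3.01 on this array, near the top of the range of 1.71 to 3.06 on the others. The part of these properties in the results below was not tested. The label of the tissue fitted its markers, since 11 cardiomyocyte genes were bright on all 8 arrays. Their summed level lay between 15.96 and 16.06. Quantile normalization gives the brightest ranks the same values on every array, so this narrow range is partly built in. For the late estradiol group against sham, 9 of these 11 genes were lower and 2 higher, with a median difference of -0.05.

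Uptake and activation genes were described first along the path of the fatty acid. Lpl, the lipase that frees fatty acids from lipoproteins at the vessel wall, gave 12.11 and 12.06 in sham, 12.05 and 12.10 in Ovx, 12.26 and 12.13 with early estradiol, and 12.26 and 12.22 with late estradiol. All 4 estradiol arrays lay above all 4 arrays without the pellet. The difference from Ovx was 0.12 ± 0.13 with early and 0.17 ± 0.13 with late estradiol, with 95% intervals of -0.16 to 0.41 and -0.11 to 0.45, so neither was distinguishable from 0. Without normalization between arrays (a setting in which the median of all probe sets was itself -0.62 for late estradiol against sham) the late estradiol differences of Lpl were -0.01 from Ovx and -0.12 from sham, where the normalized difference from sham was 0.16 ± 0.13. Angptl4, whose product inhibits this lipase, was dim and scattered, at 4.21 and 1.59 in sham, 0.60 and 4.02 in Ovx, 4.96 and 3.22 with early estradiol and 0.59 and 4.42 with late estradiol. Every group of Angptl4 overlapped every other, and no order can be read from it.

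Cd36, the main fatty acid translocase of the muscle cell membrane, was at 10.79 and 10.37 in sham, 11.21 and 9.77 in Ovx, 10.87 and 10.55 with early estradiol, and 10.40 and 10.36 with late estradiol. The Ovx arrays were the highest and the lowest of the 8, and the other 6 lay between them. The Ovx minus sham difference was -0.09 ± 0.37, from 0.42 on the replicate 1 arrays and -0.60 on the replicate 2 arrays. Slc27a1, a transport protein that also activates fatty acids, had signals of 8.37 and 8.30 in sham, 8.16 and 8.47 in Ovx, 8.46 and 8.54 with early estradiol, and 8.03 and 8.36 with late estradiol. Both early estradiol arrays were above both sham arrays, by 0.16 ± 0.21, and both were above both late estradiol arrays, with a late minus early difference of -0.31 ± 0.21 (unadjusted p = 0.168, limma).

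Fabp3, the cytosolic fatty acid binding protein of heart muscle, was flat. Its signal was as bright as that of several of the cardiomyocyte genes. Its narrow range is therefore also partly built in by the normalization. It read 12.69 and 12.65 in sham, 12.62 and 12.78 in Ovx, 12.61 and 12.78 with early estradiol, and 12.55 and 12.62 with late estradiol. Its largest mean difference in any comparison was -0.11 ± 0.13, and its 95% interval for late estradiol against sham was -0.38 to 0.21.

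Acsl1, the acyl-CoA synthetase that traps long-chain fatty acids as CoA esters, was low in Ovx on both arrays. Its signal was 11.05 and 11.13 in sham, 10.91 and 10.78 in Ovx, 11.11 and 11.01 with early estradiol, and 11.05 and 11.02 with late estradiol. The 2 Ovx arrays were below the other 6. The difference was -0.24 ± 0.14 for Ovx against sham (adjusted p = 1, limma), 0.21 ± 0.14 for early estradiol against Ovx and 0.19 ± 0.14 for late estradiol against Ovx, and the estradiol groups differed from sham by -0.03 and -0.05. The 95% interval of each included 0, and the first 3 values are not independent, since the same Ovx arrays enter all of them. A dimmer probe set for Acsl1 that passed the filter had -0.19, 0.16 and -0.09 in the same comparisons, so that its late estradiol value had the opposite sign, as did that of the brighter probe set without normalization between arrays (-0.17).

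The carnitine shuttle moves the activated fatty acid across the mitochondrial membranes, and Cpt2, which sits on the inner membrane and hands the acyl group back to coenzyme A, had the smallest p of all members over the 4 groups. Its values were 9.83 and 9.11 in sham, 9.43 and 9.36 in Ovx, 9.51 and 9.21 with early estradiol, and 8.79 and 9.00 with late estradiol. Both late estradiol arrays were below the other 6. The late estradiol group differed from sham by -0.57 ± 0.24, a ratio of 1.49 (unadjusted p = 0.0372, adjusted p = 0.997, limma), from Ovx by -0.50 ± 0.24 (unadjusted p = 0.0624, limma) and from early estradiol by -0.46 ± 0.24 (unadjusted p = 0.0824, limma). The difference from sham was -1.04 on the replicate 1 arrays and -0.11 on the replicate 2 arrays, while that from Ovx was -0.65 and -0.36. Ovx and early estradiol differed from sham by -0.07 ± 0.24 and -0.11 ± 0.24.

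Cpt1b, the muscle form of the enzyme that makes the carnitine ester and the step that malonyl-CoA inhibits, had 10.98 and 10.56 in sham, 10.88 and 10.76 in Ovx, 10.97 and 10.82 with early estradiol, and 10.54 and 10.78 with late estradiol. The late estradiol mean was the lowest, with a difference of -0.11 ± 0.18 from sham, but the groups overlapped. Both late estradiol arrays were below both early ones for Cpt1b, at -0.23 ± 0.18. Cpt1a, the liver form that heart also makes, was lower in late estradiol than in sham on both arrays, with a difference of -0.32 ± 0.23 (95% interval -0.83 to 0.19). Slc25a20, the carrier that exchanges acylcarnitine for free carnitine, was 9.26 and 9.03 in sham, 9.31 and 8.95 in Ovx, 9.02 and 9.02 with early estradiol, and 9.09 and 8.96 with late estradiol, and its 3 groups without ovaries differed from sham by -0.01, -0.13 and -0.12, each ± 0.19. Early and late estradiol differed by 0.00 ± 0.19 for this carrier.

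Mlycd, which breaks down malonyl-CoA and so relieves the brake on Cpt1b, read 8.98 and 8.78 in sham, 8.25 and 8.68 in Ovx, 8.57 and 8.89 with early estradiol, and 8.04 and 8.73 with late estradiol. Its sham arrays lay above both Ovx arrays, with an Ovx minus sham difference of -0.41 ± 0.26, and above both late estradiol arrays, with a late minus sham difference of -0.49 ± 0.26 (unadjusted p = 0.091, limma). Most of both differences came from the replicate 1 arrays. The replicate 2 arrays alone had 8.78 in sham, 8.68 in Ovx and 8.73 with late estradiol. The early estradiol mean of Mlycd was below that of sham and above that of Ovx, by 0.27 ± 0.26 for the latter. All 5 genes of the shuttle and of malonyl-CoA breakdown had a lower mean in late estradiol than in sham, and the median over the 5 was -0.32. In this comparison 26 of the 30 members and 51.9% of all probe sets were lower. For Cpt1b the difference was -0.43 on the replicate 1 arrays and 0.22 on the replicate 2 arrays.

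**Figure D2:**
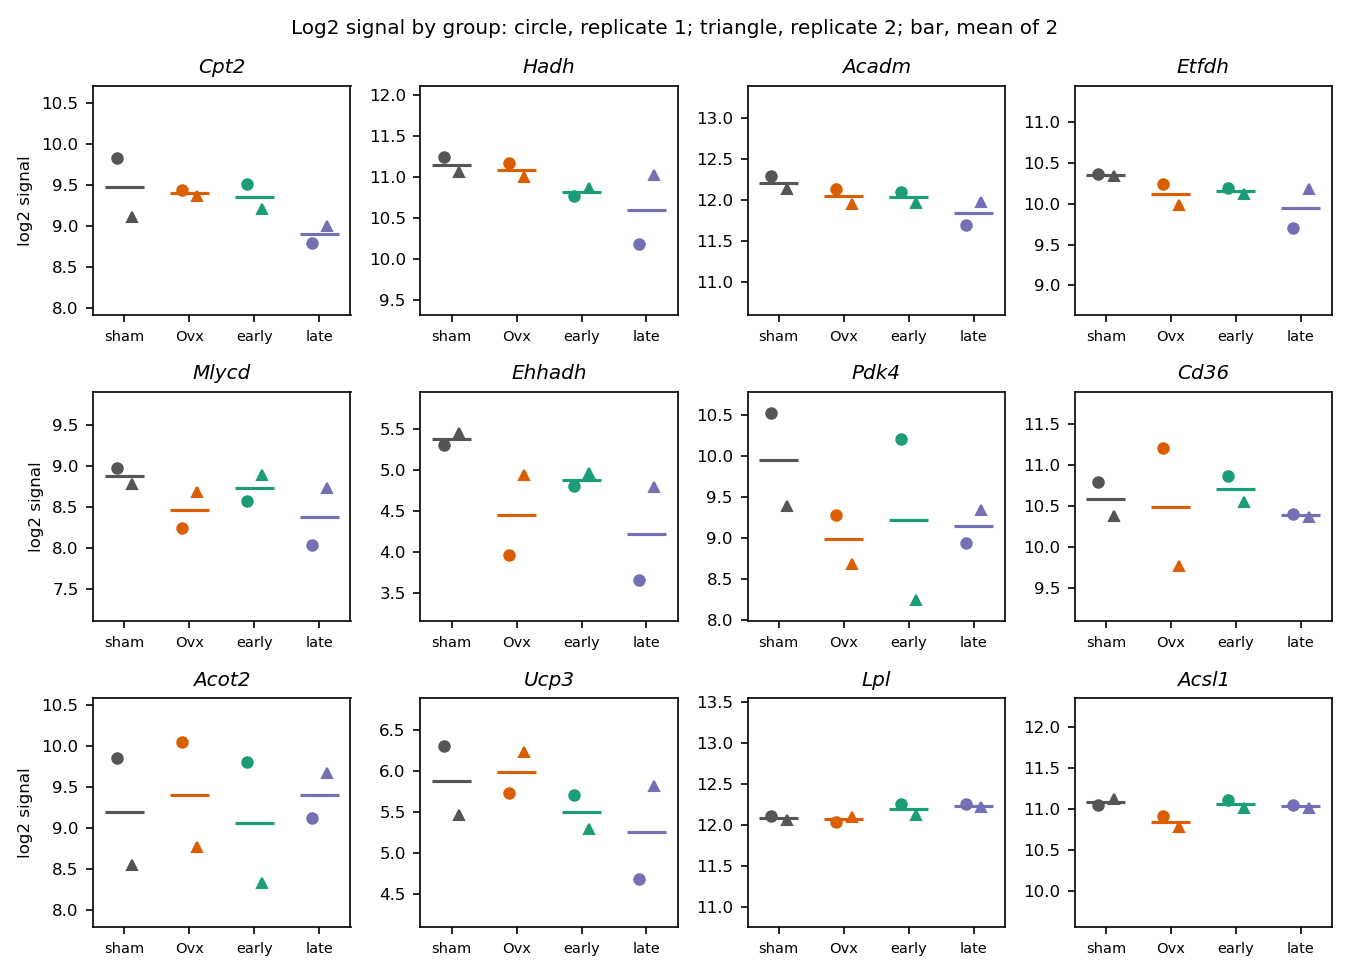
Log2 signal of 12 fatty acid genes by group, in panels that all span the same number of log2 units. A circle is replicate 1, a triangle replicate 2 and a bar the mean of the 2 arrays. Both late estradiol arrays of Cpt2 lay below the other 6, both Ovx arrays of Acsl1 lay below the other 6, and the replicates of Acot2, Cd36, Ehhadh, Pdk4 and Ucp3 differed by more than 1 unit in at least 1 group.

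The acyl-CoA dehydrogenases take the first electrons from the chain, each for its own range of chain lengths. Acadm, the medium-chain enzyme, was at 12.28 and 12.13 in sham, 12.13 and 11.95 in Ovx, 12.10 and 11.96 with early estradiol, and 11.69 and 11.97 with late estradiol. Both sham arrays were above every array of the other groups, sham replicate 2 over Ovx replicate 1 by less than the digits printed. Late estradiol minus sham was -0.37 ± 0.15, a ratio of 1.30 (95% interval -0.71 to -0.04, unadjusted p = 0.0329, adjusted p = 0.997, limma), and this came from -0.59 on the replicate 1 arrays and -0.16 on the replicate 2 arrays. Ovx and early estradiol were nearer to sham for Acadm, with differences of -0.17 ± 0.15 and -0.18 ± 0.15. With arrays scaled to the same trimmed mean in place of quantile normalization the Ovx value was 0.10.

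The other 3 dehydrogenases showed little. Acadvl, for very long chains, ranged only from 9.83 to 10.17 over the 8 arrays, and Acadl, for long chains, from 11.87 to 12.25. Acads, for short chains, lay between 8.90 and 9.28. Late estradiol minus sham was -0.03 ± 0.16 for Acadvl, -0.14 ± 0.15 for Acadl and -0.09 ± 0.19 for Acads, all with overlapping groups.

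Electrons from these enzymes pass to the electron transfer flavoprotein, made of Etfa and Etfb, and from there through Etfdh to ubiquinone. Etfdh gave 10.36 and 10.34 in sham, 10.24 and 9.98 in Ovx, 10.19 and 10.11 with early estradiol, and 9.71 and 10.18 with late estradiol. The 2 sham arrays were the highest of the 8. The differences from sham were -0.24 ± 0.19 in Ovx, -0.20 ± 0.19 with early and -0.41 ± 0.19 with late estradiol (unadjusted p = 0.0553 for the last, limma). Most of the last came from the replicate 1 arrays, as the replicate 2 arrays alone had 10.34 in sham and 10.18 with late estradiol. Etfb went the other way, with 11.59 and 11.72 in sham, 11.67 and 11.54 in Ovx, 11.57 and 11.90 with early estradiol, and 11.81 and 11.94 with late estradiol. Both late estradiol arrays of Etfb exceeded both Ovx arrays, by 0.26 ± 0.15, and both sham arrays, by 0.22 ± 0.15 (95% interval -0.12 to 0.56), a difference that was -0.21 without normalization between arrays. Etfa, the partner subunit, had a late estradiol minus sham difference of -0.05 ± 0.19. The 2 subunits of 1 protein and its acceptor gave 3 different orders of the groups, and the 95% intervals of the differences given here for these 3 genes included 0.

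The remaining steps of the cycle add water, oxidise again and cut the chain. Hadh, the hydroxyacyl-CoA dehydrogenase of medium and short chains, read 11.24 and 11.06 in sham, 11.17 and 11.00 in Ovx, 10.77 and 10.87 with early estradiol, and 10.19 and 11.02 with late estradiol. Both estradiol groups were below sham on all arrays, with a difference from sham of -0.33 ± 0.24 in the early group and of -0.55 ± 0.24 in the late group (unadjusted p = 0.0446, adjusted p = 0.997, limma). The late difference was -1.05 on the replicate 1 arrays and -0.04 on the replicate 2 arrays. It therefore rested on 1 array, late estradiol replicate 1. Another probe set for Hadh, too dim for the test, had 0.45 for the same comparison.

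Hadha and Hadhb encode the 2 subunits of the trifunctional protein, which carries out the last 3 steps for long chains. Hadha was the steadiest member by group mean, with 10.27 and 9.89 in sham, 10.08 and 10.00 in Ovx, 10.22 and 10.01 with early estradiol, and 10.07 and 10.01 with late estradiol. The group means of this brightest Hadha probe set spanned 0.08. A much dimmer one that passed the filter had -0.24 for Ovx against sham and 0.70 for late estradiol against sham. Against Ovx it had 0.49 with early and 0.94 with late estradiol. Hadhb was between 11.67 and 12.01 on 7 arrays and at 11.39 on late estradiol replicate 1, and its late estradiol minus sham difference was -0.26 ± 0.19, against -0.04 ± 0.18 for Hadha. Echs1, the short-chain hydratase, differed from sham by -0.12 ± 0.18 with late estradiol.

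Acaa2, the mitochondrial thiolase, was 11.20 and 10.93 in sham, 10.91 and 10.89 in Ovx, 10.81 and 10.83 with early estradiol, and 10.84 and 10.85 with late estradiol. Both sham arrays were above the other 6, and the 6 arrays without ovaries lay within 10.81 to 10.91. The differences from sham were -0.17 ± 0.15 in Ovx, -0.25 ± 0.15 with early and -0.22 ± 0.15 with late estradiol, and most of each came from sham replicate 1. On the replicate 2 arrays alone they were -0.04, -0.10 and -0.08, and with the mean of both Acaa2 probe sets the Ovx value was 0.03. Ehhadh, the peroxisomal enzyme that joins hydration and oxidation, was a dim gene at 5.30 and 5.45 in sham, 3.95 and 4.94 in Ovx, 4.80 and 4.96 with early estradiol, and 3.65 and 4.79 with late estradiol. It had the widest span of group means of all members, 1.16, and its sham arrays were the highest of the 8. Late estradiol minus sham was -1.16 ± 0.57 (unadjusted p = 0.0696, limma) and Ovx minus sham -0.93 ± 0.57 for Ehhadh, with intervals that include 0.

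Unsaturated fatty acids need isomerases and a reductase before they can enter the cycle. Eci1, the mitochondrial isomerase, was 10.73 and 10.55 in sham, 10.81 and 10.46 in Ovx, 10.49 and 10.55 with early estradiol, and 10.88 and 10.74 with late estradiol. Late estradiol was above early estradiol on both arrays, by 0.29 ± 0.17 (unadjusted p = 0.108, limma), and above sham by 0.17 ± 0.17. Without normalization between arrays these values of Eci1 were -0.24 and -0.51. Eci2, found in peroxisomes and mitochondria, was 10.35 and 10.07 in sham and 9.60 and 10.03 with late estradiol, a difference of -0.39 ± 0.20 of which -0.75 was on the replicate 1 and -0.04 on the replicate 2 arrays. Decr1, the dienoyl-CoA reductase, differed by -0.07 ± 0.22 in the same comparison.

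Genes that set fuel choice and relieve the mitochondrion of excess fatty acid scattered most between replicates. Pdk4, the kinase that switches off pyruvate dehydrogenase when fat is plentiful, was 10.52 and 9.39 in sham, 9.28 and 8.69 in Ovx, 10.20 and 8.24 with early estradiol, and 8.93 and 9.35 with late estradiol. Both sham arrays were above both Ovx arrays, with an Ovx minus sham difference of -0.97 ± 0.56 and a ratio of 1.96 (95% interval -2.21 to 0.27, unadjusted p = 0.112, limma), -1.24 on the replicate 1 and -0.70 on the replicate 2 arrays. The sham arrays were also above both late estradiol arrays (late minus sham -0.82 ± 0.56), but on the replicate 2 arrays alone this difference was -0.04. A dimmer Pdk4 probe set had -0.41 for Ovx and -1.62 for late estradiol against sham. The early estradiol arrays lay further apart than any 2 group means, and early estradiol minus sham was -0.73 ± 0.56, or 0.26 without early estradiol replicate 2.

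Ucp2 and Ucp3 are mitochondrial carriers of the uncoupling protein family. Ucp2 had 9.10 and 8.81 in sham, 8.71 and 9.10 in Ovx, 8.71 and 9.29 with early estradiol, and 8.41 and 8.78 with late estradiol. Late minus early estradiol was -0.41 ± 0.25 for Ucp2 and its arrays overlapped between these groups. Ucp3 had 6.30 and 5.46 in sham, 5.74 and 6.24 in Ovx, 5.71 and 5.30 with early estradiol, and 4.69 and 5.83 with late estradiol. Both early estradiol arrays were below both Ovx arrays of Ucp3, with a difference of -0.48 ± 0.47. Acot2, the mitochondrial thioesterase that frees fatty acids from coenzyme A, was 9.85 and 8.55 in sham, 10.05 and 8.77 in Ovx, 9.80 and 8.33 with early estradiol, and 9.12 and 9.68 with late estradiol. Replicate 1 exceeded replicate 2 by more than 1 unit in 3 groups, and the largest difference between groups was -0.35 ± 0.56, for early estradiol against Ovx. Other Acot2 probe sets that passed the filter differed from this one. One of nearly the same brightness had 0.17 for early estradiol against Ovx. A much dimmer one had -1.72 for late estradiol against Ovx, and -1.83 for late estradiol against early estradiol and against sham. Acot1, its dim cytosolic relative, lay between 0.34 and 4.33 on the 8 arrays.

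The members as a set were then set beside all probe sets in each comparison. For Ovx against sham, 24 of the 30 members had a lower mean in Ovx, where 53.3% of all probe sets did, with a median difference of -0.07 against -0.03 over all probe sets. Both Ovx arrays were below both sham arrays for 8 members (26.7%, against 14.1% of all probe sets), and both were above for 0 (against 11.0%). These 8 were Acadm, Echs1, Acaa2, Etfdh, Acsl1, Pdk4, Mlycd and Ehhadh. No member had an unadjusted limma p under 0.05, which 1.47% of all probe sets had (274). The count of lower members moved most without sham replicate 1, to 11 of 30 with a median of 0.02. Without sham replicate 2 the count was 28 and the median -0.21, and without Ovx replicate 2 they were 18 and -0.04. With trimmed mean scaling in place of quantile normalization the count was 18 and the median -0.07.

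Early estradiol against Ovx gave no common direction. The mean was lower for 15 members, against 47.1% of all probe sets, and higher for 15, with a median of 0.02, the same as over all probe sets. The balance moved with single arrays, to 9 lower and a median of 0.07 without Ovx replicate 1, 18 and -0.07 without Ovx replicate 2, 16 and -0.02 without early estradiol replicate 1, and 11 and 0.08 without early estradiol replicate 2. The arrays separated downward for 3 members (12.3% of all probe sets) and upward for 2 (14.7%), Lpl and Acsl1. No member had an unadjusted p under 0.05 with limma, against 1.71% of all probe sets. Among the uptake and activation genes 4 of 5 were higher with early estradiol, with a median of 0.18.

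Late estradiol against Ovx placed 22 of 30 members lower, against 48.8% of all probe sets, with a median of -0.10 against 0.01. Both arrays were lower for 3 members, Cpt1a, Cpt2 and Acaa2 (13.4% of all probe sets), and higher for 3, Lpl, Acsl1 and Etfb (15.7%). No member had an unadjusted p under 0.05 with limma, against 4.36% of all probe sets. The median was -0.26 on the replicate 1 arrays and 0.04 on the replicate 2 arrays. Without late estradiol replicate 1, 15 of 30 were lower and the median was -0.004, without late estradiol replicate 2 they were 21 and -0.20, and without Ovx replicate 1 they were 18 and -0.04. The 2 starts of estradiol compared with each other gave 22 members lower with the late start, where 50.7% of all probe sets were, and a median of -0.10 against -0.01. Here too the replicate 1 arrays gave -0.36 and the replicate 2 arrays 0.02. Without late estradiol replicate 1 the count was 17 and the median -0.02, and without early estradiol replicate 1 they were 18 and -0.04. Without late estradiol replicate 2 the median was -0.21, and without early estradiol replicate 2 it was -0.18. Both late arrays were below both early arrays for 5 members (16.3% of all probe sets) and above for 2 (15.5%), and 0 members had an unadjusted p under 0.05, against 3.87%.

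Against sham, the early estradiol group was lower for 22 of 30 members (50.1% of all probe sets), with a median of -0.11 against 0.00. Without sham replicate 1 the count was 16 and the median -0.007, without sham replicate 2 they were 25 and -0.22, and without early estradiol replicate 2 they were 17 and -0.07. Its arrays separated below sham for 7 members (12.7% of all probe sets) and above for 2 (12.1%), and no member had an unadjusted p under 0.05 with limma (0.773% of all probe sets). The late estradiol group was lower than sham for 26 of 30 members, against 51.9% of all probe sets, with a median of -0.14 against -0.02. Both late estradiol arrays were below both sham arrays for 12 members (40%, against 16.1% of all probe sets) and above for 3 (against 14.5%). The 12 were Cpt1a, Cpt2, Acadm, Hadh, Acaa2, Eci2, Etfdh, Fabp3, Ucp2, Pdk4, Mlycd and Ehhadh, and the 3 were Lpl, Etfb and Eci1. An unadjusted p under 0.05 was found for Cpt2, Hadh and Acadm, all lower, with limma, where 3.37% of all probe sets had one and 1.97% had one and were lower. In the fit with the replicate number as a block, 6 members had an unadjusted p under 0.05 for late estradiol against sham, namely Cpt2, Acadm, Hadh, Etfdh, Mlycd and Ehhadh, all lower, where 7.18% of all probe sets had one in either direction. In that fit the count was 2 for late estradiol against Ovx (Cpt2 and Hadh, both lower, against 8.03% of all probe sets) and 1 for Ovx against sham (Pdk4, lower, against 3.08%). It was 0 for early estradiol against Ovx (3.68%), late against early (7.79%) and early estradiol against sham (1.63%). None of these passed the adjusted limma test with the block, where the smallest adjusted p of a member was 0.611. The comparisons with sham share the sham arrays, and those with Ovx share the Ovx arrays, so their counts are not independent of each other.

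**Figure D3:**
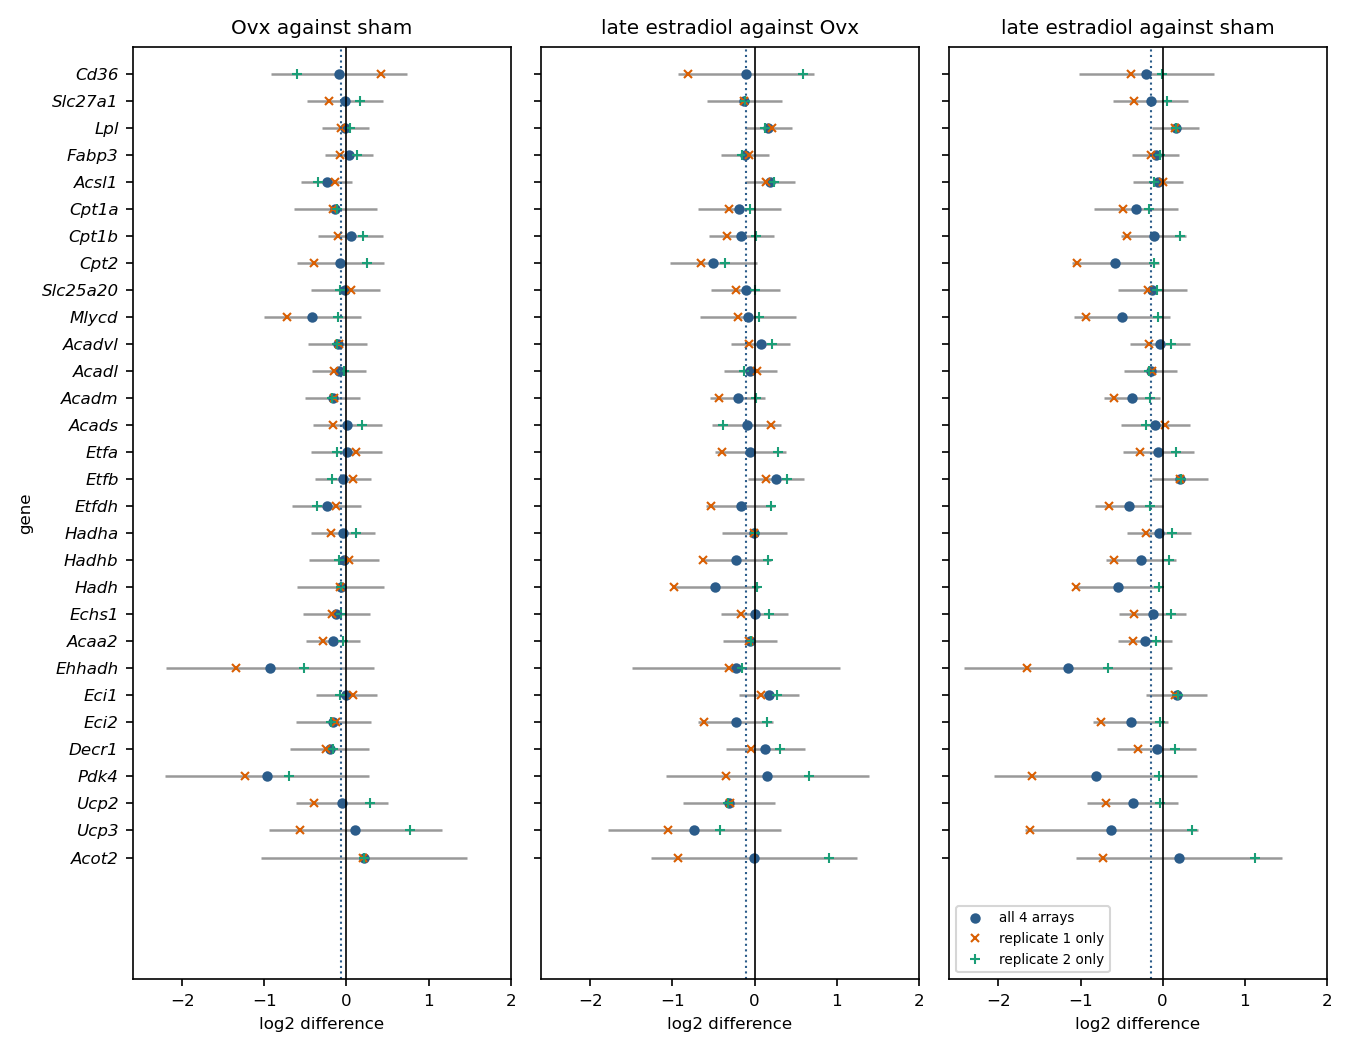
Log2 difference of each tested gene in 3 comparisons. The blue point is the difference of group means, the grey bar its 95% interval, the cross the replicate 1 arrays alone and the plus the replicate 2 arrays alone, and the dotted line is the median over the 30 genes (-0.07, -0.10 and -0.14). For late estradiol against sham the crosses lay further to the left, with a median of -0.37, than the pluses, with a median of -0.03.

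How far this shift in late estradiol depended on single arrays was measured by leaving each out. Without late estradiol replicate 1, the array with the high Gapdh ratio, 22 of 30 members were lower than in sham and the median was -0.12. Without sham replicate 1 the count was 21 and the median -0.08, without late estradiol replicate 2 it was 26 and -0.23, and without sham replicate 2 it was 27 and -0.35. The number of members lowest in late estradiol was 17, and 11 without late estradiol replicate 1. The number highest in sham was 17, and 10 without sham replicate 1 and 24 without sham replicate 2. Among the sham arrays 27 of the 30 members were lower on replicate 2, where 48.2% of all probe sets were, so the 2 sham pools themselves differed across the set.

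**Figure D4:**
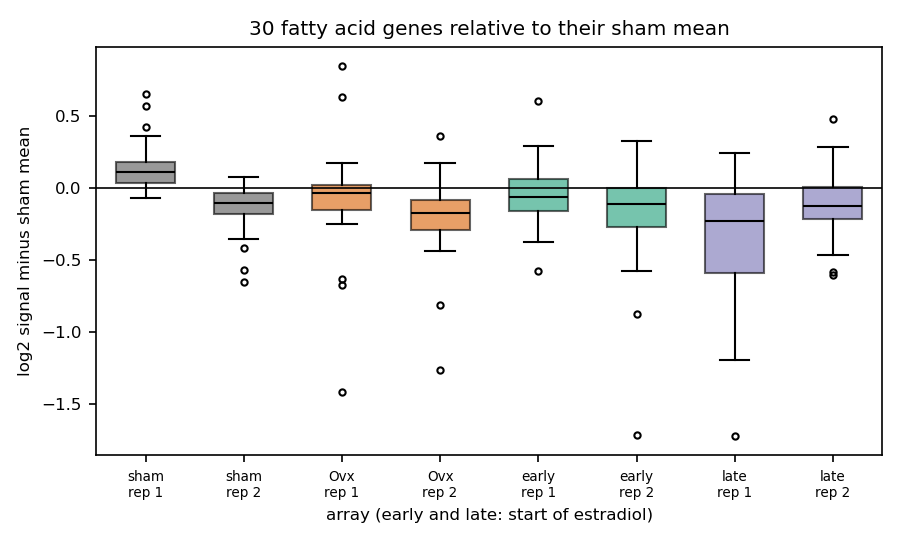
Distribution over the 30 fatty acid genes of the log2 signal on each array minus the gene's sham mean. Boxes run from the first to the third quartile with the median as a line, whiskers reach the furthest gene within 1.5 box lengths and circles are genes beyond. The median was 0.11 and -0.11 on the sham arrays, and it was lowest, at -0.23, on late estradiol replicate 1, where the lower quartile was -0.59.

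The members moved together only in part. Over the 8 arrays the 435 pairs of members had a median Pearson correlation of 0.31, and 50 pairs exceeded 0.7. These correlations describe 8 arrays that share groups and replicate numbers, and they carry no test. The 5 closest pairs were Eci2 with Acadm (0.97), Eci2 with Hadhb (0.97), Decr1 with Acadvl (0.95), Ucp2 with Fabp3 (0.95) and Etfdh with Acadm (0.95). Acadm, Eci2, Hadhb and Etfdh shared the low value on late estradiol replicate 1. The 2 subunits of the trifunctional protein, Hadha and Hadhb, correlated at 0.42. Slc27a1 and Eci1 ran opposite to each other, at -0.84.

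Genes of the whole array whose pattern was nearest were looked up for the 3 members of smallest p over the 4 groups, by Pearson correlation over the 8 arrays among 10449 other genes. For Cpt2 they were Rbpms (0.96), Amigo3 (0.94) and Kat5 (0.94). For Hadh they were Ipo11 (0.99), Cdk10 (0.98) and Rmc1 (0.98). Hadh had 10.19 on late estradiol replicate 1 and 10.77 to 11.24 on the other arrays, so that array weighs heavily in its correlations. For Acadm the nearest were Eci2 (0.97), itself a member, Me1 (0.97), which encodes malic enzyme, and Tbc1d14 (0.96).

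The stretch upstream of some of these genes is shown to place the pairs just described on the genome. Hadha and Hadhb lie head to head, with 300 bases between their starts, so a single stretch lies upstream of both. Of these 300 bases 193 are shown, all of them outside the annotated span of both genes and within 250 bases of both starts. Acadm and Etfdh are shown as 2 genes whose signals ran together. The sequences are from RefSeq, build GRCr8, with GC boxes (GGGCGG, or CCGCCC on the other strand) in capitals. The bases shown from between Hadha and Hadhb are chr6:31907558-31907750 on the plus strand and the upstream 250 bases are chr2:245542865-245543114 for Acadm and chr2:167060759-167061008 for Etfdh, both on the minus strand.
Part of the stretch between Hadha and Hadhb: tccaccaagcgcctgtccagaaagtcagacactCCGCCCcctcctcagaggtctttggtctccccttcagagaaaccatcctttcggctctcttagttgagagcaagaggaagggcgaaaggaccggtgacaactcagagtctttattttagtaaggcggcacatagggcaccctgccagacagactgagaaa
Upstream of Acadm: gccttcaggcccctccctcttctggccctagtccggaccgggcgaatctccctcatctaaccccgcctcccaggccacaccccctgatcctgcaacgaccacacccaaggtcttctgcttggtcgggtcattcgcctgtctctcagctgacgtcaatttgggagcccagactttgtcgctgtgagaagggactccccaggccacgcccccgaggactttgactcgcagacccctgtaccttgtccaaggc
Upstream of Etfdh: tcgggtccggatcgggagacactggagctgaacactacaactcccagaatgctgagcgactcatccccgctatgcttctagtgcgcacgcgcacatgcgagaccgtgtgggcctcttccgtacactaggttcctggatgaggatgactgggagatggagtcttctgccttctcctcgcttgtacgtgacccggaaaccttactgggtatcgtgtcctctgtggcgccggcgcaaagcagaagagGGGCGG
The 193 bases shown between Hadha and Hadhb hold 1 GC box, the 250 of Etfdh 1 at their end next to the start, and the 250 of Acadm 0, while the 300-base window of Acadm, which goes on for 50 bases past the start, has 3. The 300-base windows of Hadha and Hadhb have 1 and 4.

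RefSeq promoter windows, 250 bases before to 50 after the start, were at hand for 28 of the 33 members and were searched on both strands. A GC box, GGGCGG, the site of Sp family factors, was in 17 of the 28 (60.7%), against 33.1% of all 33469 windows. The nuclear receptor half-site AGGTCA was in 7 (25%), against 16.2%. The windows with the half-site were those of Ucp3, Echs1, Hadhb, Eci1, Acadvl, Slc27a1 and Eci2. The full estrogen response element, GGTCA and its reverse complement TGACC with any 3 bases between them, was in 0 of the 28 and in 0.0269% of all windows. The PPAR element, the half-site repeated in the same direction after any 1 base, was in 0 and in 0.0538%, and the estrogen-related receptor element TCAAGGTCA in 0 and in 0.433%. The half-site is part of the last 2 motifs. These are matches of letters in a short window, and elements further away were not searched.

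Other genes of the pathway were counted in 8 lists, and none of their genes passed the adjusted test in any comparison. Against sham, with late estradiol, 13 of 16 genes of triglyceride storage and lipolysis were lower and 3 higher (median -0.33), 15 of 21 other mitochondrial acyl-CoA enzymes were lower (median -0.15), 11 of 18 further genes of uptake and activation were lower (median -0.19) and 9 of 11 genes of pyruvate dehydrogenase and its kinases were lower (median -0.20). Over all probe sets 51.9% were lower in this comparison. Malonyl-CoA and AMPK genes were lower in 9 of 13 (median -0.18), peroxisomal genes in 10 of 14 (median -0.09), the ketone body enzymes in 4 of 4 (median -0.29), and the PPAR, PGC-1 and ERR regulators in 6 of 13 (median 0.10). In Ovx against sham, where 53.3% of all probe sets were lower, 10 of 13 regulators were lower (median -0.16), 9 of 11 genes of pyruvate dehydrogenase (median -0.12) and 10 of 16 of triglyceride storage (median -0.13). Peroxisomal genes were lower in 11 of 14 with early estradiol against Ovx (median -0.13), where 47.1% of all probe sets were lower. With late against early estradiol 12 of 14 were higher (median 0.04), where 50.7% of all probe sets were lower. The early estradiol arrays enter both comparisons with opposite sign, so these counts are not independent of each other. With late estradiol against Ovx 8 of 14 were lower (median -0.02), against 48.8% of all probe sets.

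Of the regulators, Ppargc1a, the coactivator that switches on oxidative genes, had a mean of 8.05 in Ovx and 8.70 with late estradiol, a difference of 0.66 ± 0.28 (unadjusted p = 0.0415, adjusted p = 0.943, limma). This is the direction opposite to that of most members in the same comparison. Esrrb and Lpin1, an orphan receptor and a phosphatidate phosphatase that also acts as a coactivator, were lower with late estradiol than in sham on both arrays, with differences of -0.71 ± 0.30 and -0.63 ± 0.27 (unadjusted p = 0.0393 and 0.0387, limma). Cidea, a lipid droplet protein, differed from sham by -0.65 ± 0.17 with late and -0.50 ± 0.17 with early estradiol, and from Ovx by -0.51 ± 0.17 with late estradiol. It had the smallest unadjusted p of the list genes, 0.00296 for late estradiol against sham with limma, and an adjusted p of 0.997. Cidea and Ppargc1a also mark brown fat, whose defining gene Ucp1 lay between 0.21 and 2.70 on the 8 arrays, too dim to be tested. Plin3, another lipid droplet coat protein, differed from sham by -0.55 ± 0.22 with late estradiol (unadjusted p = 0.0307, limma). Its late minus early difference was -0.57 ± 0.22. The remaining list genes with an unadjusted limma p under 0.05 were Acad9, an acyl-CoA dehydrogenase that also helps assemble respiratory complex I, at 0.52 ± 0.21 for late against early estradiol, Dld, a subunit of pyruvate dehydrogenase, at -0.66 ± 0.27 for the same comparison, and 2 others. Acadsb, which oxidises branched short chains, was dim and had -1.83 ± 0.76 for late against early estradiol and -1.80 ± 0.76 for late estradiol against sham. Srebf1, a regulator of lipid synthesis, had 2.64 ± 1.17 for late estradiol against Ovx.

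The markers of several other cell types varied more between arrays than the cardiomyocyte genes did, whose narrow range is partly set by the normalization. The summed level of 4 atrial cardiomyocyte genes was 9.28 and 11.30 on sham replicates 1 and 2. It was 10.21 and 11.54 in Ovx, 11.58 and 11.37 with early estradiol, and 11.98 and 10.94 with late estradiol. Nppa, the brightest of the 4, made up most of this sum and had 8.85 and 11.23 on the sham arrays. On the same arrays Myl4 had 5.74 and 5.99, and Sln 3.97 and 4.65. Myl7 went the other way, with 6.49 and 4.81. Against sham 4 of these 4 genes were higher with early estradiol (median 1.46) and 3 of 4 with late estradiol (median 0.87). Of 10 fibroblast genes 9 were lower with late estradiol than in sham (median -0.48), and their summed level was 12.49 to 12.51 in sham, 12.75 to 12.89 in Ovx, 12.58 to 12.78 with early estradiol and 11.88 to 12.39 with late estradiol. Of 12 macrophage genes 8 were lower (median -0.23), with a summed level of 10.63 to 10.71 in sham, 10.62 and 12.56 on Ovx replicates 1 and 2, 11.27 to 11.61 with early estradiol and 10.36 to 10.99 with late estradiol. With early estradiol 12 of the 12 were higher than in sham (median 0.67). Of 9 endothelial genes 7 were higher (median 0.16), with a summed level of 11.19 to 11.24 in sham and 11.26 to 11.66 with late estradiol. Red blood cell genes were lower in 3 of 3 (median -0.32), and the late minus sham median was 0.04 over 5 smooth muscle genes, 0.01 over 5 skeletal muscle genes and 0.05 over 3 brown adipocyte genes. Adipocytes, which make Lpl and Cd36 too, were hard to see. Of the 9 adipocyte genes listed 7 were on the array and 3 passed the filter, Cfd, Lipe and Pck1, and these 3 were lower with late estradiol (median -0.50), while Adipoq, the defining adipocyte gene, lay between 0.62 and 4.63 on the 8 arrays and was too dim to be tested. The part of these cell types in the members' values was not tested.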

How the data were processed

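Total RNA of 8 pools of 3 hearts, 2 pools in each of 4 groups, was measured on 1-colour Affymetrix arrays. The authors deposited linear signal intensity per probe set, a MAS5 output per the submitters' processing notes. The sources used here do not state its version or scaling, and no detection call was used. The deposited arrays were not on 1 scale, so log2 of the deposited intensity was quantile normalized. Of 31099 probe sets 57 controls were left out, and 18625 of 31042, those whose mean log2 reached the 40th percentile, entered the test. Dim values were separated from background by this filter alone, and precision is limited by the number of arrays.

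Group means were fitted over all 8 arrays with limma 3.58.1 in R 4.3.3, with trended prior variance and 4 residual degrees of freedom. P-values are two-sided and were adjusted by the Benjamini-Hochberg method over all probe sets of a comparison, at 0.05. The script was tested on simulated data. Names come from the platform annotation, with 20758 of 20826 single-symbol probe sets matched to RefSeq GRCr8 by gene number and 0 symbols updated. The 436 probe sets with several symbols and 9780 with none were not named.

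The members, the pathway lists and the marker lists were chosen with earlier results of these data known. Array values are given for the 6 members of smallest F-test p, for the 2 members of smallest p in either direction in a comparison, and for 1 or more members per step. List genes are named at an unadjusted p under 0.05, at most 4 per list and comparison. Other members are given in brief. The labels number the replicates of every group 1 and 2. Replicate 2 minus replicate 1 differences correlated across probe sets at 0.28 to 0.33 in all 6 pairs of groups, so the numbers were taken to pair the arrays, and a fit with the number as a block (3 residual degrees of freedom) was an alternative. Other alternatives were no normalization between arrays, trimmed mean scaling, other filters, an offset, no trend, array weights, averaged probe sets of a gene, only the arrays compared, and each array left out.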

Additional observations from a re-analysis of the deposited data

How the results depend on the processing

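No fatty acid gene passed the limma test under any setting tried. The smallest adjusted p of a member in any of them was 0.0775, without late estradiol replicate 2. Of 2262 alternative values for the differences of 21 named genes, 2060 lay within 1 standard error of the reported value, 190 moved by more, and 12 had the opposite sign to a value larger than its standard error. Many of the 2060 could not move. The block, the fit without trend, the array weights and the other filters leave a probe set's difference as it was. Leaving out an array changes comparisons without its group only through the renormalization. The 2060 are therefore no measure of robustness. The replicate block changed no other call than the 1 probe set it added for late estradiol against Ovx, and 1 probe set was called there also with no filter on dim probe sets, with a 60th percentile filter and with 32 added before the log.

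Without normalization between arrays the median of the members was -0.40 for Ovx against sham, 0.20 for early estradiol against Ovx, -0.46 for late estradiol against Ovx, -0.61 for late against early and -0.86 for late estradiol against sham, while the medians of all probe sets were -0.31, 0.18, -0.31, -0.48 and -0.62. In that setting late estradiol was lowest for 29 members, sham highest for 27, and both late estradiol arrays were below both sham arrays for 3. Of the 30 members 29 were lower there for late estradiol against Ovx and 30 for late against early, where the normalized counts were 22 and 22. Turned signs are listed only for differences of named members that had exceeded their standard error. They were those of Acsl1 (-0.17), Eci1 (-0.19) and Lpl (-0.014) for late estradiol against Ovx and Eci1 (-0.24) for late against early. For late estradiol against sham they were those of Etfb (-0.21), Eci1 (-0.51) and Lpl (-0.12). By the same rule trimmed mean scaling turned Acadm for Ovx against sham (0.10) and late against early (0.010). Averaging the probe sets of a gene turned Acaa2 for Ovx against sham (0.028). The replicate 1 arrays alone, a setting added after the data were seen, gave medians of -0.26, -0.36 and -0.37 for late estradiol against Ovx, early estradiol and sham.

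With each array left out in turn, probe sets called ran from 0 to 3 for Ovx against sham, 0 to 65 for late estradiol against Ovx, 0 to 100 for late against early, 0 to 86 for late estradiol against sham and 0 to 1 over the 4 groups, the upper values of the last 4 without late estradiol replicate 2 and that of the first without Ovx replicate 1. None of these was a member. A group left with 1 array is assumed to vary like the others. The members' median for late estradiol against sham ran from -0.353 to -0.082, the number lowest in late estradiol from 11 to 18, and the number highest in sham from 10 to 24. Etfdh for late against early estradiol ran from -0.44 to 0.029 and Pdk4 for early estradiol against sham from -1.72 to 0.26. What set these movements was not tested.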
